A study of Mus musculus with 6 samples.

Results

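Hedgehog receptors, co-receptors and Gli factors were examined as a set of 9 genes, Gas1, Boc, Cdon, Ptch1, Smo, Gli1, Gli2, Gli3 and Hhip, out of 19938 genes with a value on the array. Each of the 9 had 1 probe set with a single gene symbol, so no choice between probe sets was needed. The samples were immortalized neural precursor-like cells from the brain of C57BL/6J mouse embryos at day 13.5, grown in RPMI medium with 1% fetal bovine serum. In 3 samples the cells were Lgi1 knock-out, with a homozygous deletion of Lgi1, and in 3 they were Lgi1 wild type, and each sample was hybridised to 1 Affymetrix Mouse Gene 1.0 ST array. Lgi1 encodes a secreted protein of neurons. Per the labels the samples of a genotype are biological replicates, with no word on how many embryos or cell lines they came from. The p-values here therefore speak of the spread among these arrays, which could be technical in origin, and differences between genotypes and between lines cannot be told apart.

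Hedgehog proteins are secreted signals that pattern the ventral neural tube and keep neural progenitors dividing. Without ligand, the receptor Patched holds the membrane protein Smoothened inactive and Gli proteins are processed into repressors. When ligand binds Patched together with a co-receptor (GAS1, BOC or CDON), Smoothened becomes active in the primary cilium and Gli proteins reach the nucleus as activators. Gli1, Ptch1 and Hhip are classical target genes of the pathway, and the last 2 of them also restrain it. A microarray measures the RNA of these genes and not the activity of the pathway.

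Of the 9 genes, 5 were higher and 1 was lower in knock-out cells, and 3 were not called (limma, adjusted p under 0.05 over all genes). Over all genes 31.6% passed in either direction, 14.0% as higher and 17.6% as lower, so a call by itself is common in this comparison. The median log2 difference, knock-out minus wild type, was 0.39 over the 9 genes and -0.01 over all genes. The co-receptors Gas1 and Boc were the only members to rise at least 2-fold, as 3.05% of all genes did, and no member fell that far, as 2.27% of all genes did. The receptor Ptch1 fell, Gli2, Gli3 and Hhip rose by less than 2-fold, and Cdon, Smo and Gli1 were not called. Hhip, 1 of the 5 called higher, and Gli1 lay under the background level described below in both genotypes.

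Promoter sequence is shown for Gas1, the member with the largest rise, for Ptch1, the member that fell, and for Gli2, the Gli gene with the largest rise. RefSeq promoters of build GRCm38.p6 were at hand for 7 of the 9 genes, the others being Boc and Gli1. Each line gives the 250 bases before the gene start on the strand of the gene, and capitals mark the letters ACCACCC on either strand, the core of the site bound by Gli proteins. The stretch of Gas1 lies at chr13:60177536-60177785, Ptch1 at chr13:63565736-63565985 and Gli2 at chr1:119053620-119053869, all on the minus strand.
Gas1: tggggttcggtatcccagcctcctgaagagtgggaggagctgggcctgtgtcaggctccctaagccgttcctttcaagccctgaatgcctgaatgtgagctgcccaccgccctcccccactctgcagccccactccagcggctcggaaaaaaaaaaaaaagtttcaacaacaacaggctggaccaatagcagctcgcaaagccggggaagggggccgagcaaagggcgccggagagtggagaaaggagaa
Ptch1: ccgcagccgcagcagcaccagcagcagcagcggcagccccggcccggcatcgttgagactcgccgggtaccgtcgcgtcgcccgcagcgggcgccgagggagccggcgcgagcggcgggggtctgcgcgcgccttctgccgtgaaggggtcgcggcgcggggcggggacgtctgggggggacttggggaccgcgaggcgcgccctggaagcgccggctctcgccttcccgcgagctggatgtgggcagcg
Gli2: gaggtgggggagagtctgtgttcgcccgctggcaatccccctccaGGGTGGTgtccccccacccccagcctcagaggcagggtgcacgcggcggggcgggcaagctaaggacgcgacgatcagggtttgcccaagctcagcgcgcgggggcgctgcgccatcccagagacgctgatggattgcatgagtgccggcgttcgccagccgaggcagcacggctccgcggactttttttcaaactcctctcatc

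The window searched was 300 bases long and ran 50 bases past the gene start. The core was found once among the 7 promoters, in Gli2, where it starts 205 bases before the gene start. The full 9-letter consensus GACCACCCA, which contains the core, was found in none of the 7. On both strands, 4.61% of 32851 promoters of this length held the core and 0.253% the full consensus. The promoters shown are rich in G and C, with 62.3% in Gas1, 76.3% in Ptch1 and 67.3% in Gli2, against a median of 52.7% over all promoters. A match is only a description of these letters.

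Among the co-receptors, Gas1 showed the largest difference of the set. GAS1 is a membrane protein, anchored by a lipid, that binds Sonic hedgehog and supports signalling at low ligand. Gas1 (probe set 10409833, chromosome 13) had log2 values of 10.07, 10.38 and 10.29 on the knock-out arrays, against 6.39, 6.27 and 6.44 on the wild-type arrays. All knock-out values lay above all wild-type values. Its means were 10.25 ± 0.157 in knock-out and 6.37 ± 0.0858 in wild-type cells (SD, n = 3 each). Gas1 thus differed by 3.88 on the log2 scale (SE 0.09, limma adjusted p = 3.4e-10), or 14.7-fold higher in knock-out cells. Only 72 of the 19938 genes had a larger rise.

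BOC is an immunoglobulin superfamily protein that binds Hedgehog ligand at the surface of neural progenitors and commissural axons. Boc (probe set 10439612, chromosome 16) had log2 values of 10.56, 10.71 and 10.53 in knock-out cells, against 8.38, 8.08 and 8.37 in wild-type cells. The genotypes did not overlap, as was the case for 42.3% of all genes. The rise was 2.33 on the log2 scale (SE 0.09, limma adjusted p = 2.1e-08), a 5.02-fold higher level in knock-out cells, and 202 genes rose by more.

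CDON is the paralog of BOC and shares its role as a co-receptor. Cdon (probe set 10584229, chromosome 9) had log2 values of 6.57, 6.20 and 6.36 in knock-out cells, against 6.21, 6.22 and 5.95 in wild-type cells. The genotypes overlapped, since knock-out replicate 2 lay below wild-type replicates 1 and 2. Their means differed by 0.25 on the log2 scale (SE 0.10, limma adjusted p = 0.11), with a 95% interval of 0.02 to 0.48 before adjustment. Without knock-out replicate 2 it was 0.33 and passed (limma adjusted p = 0.043), and the adjusted p ranged to 0.34 over the alternatives.

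The paralogs Boc and Cdon were set against each other within each array. The log2 value of Boc minus that of Cdon was 3.998, 4.51 and 4.18 on the knock-out arrays, against 2.17, 1.85 and 2.42 on the wild-type arrays. The difference between genotypes was 2.08, and every knock-out array lay above every wild-type array. The exact two-sided permutation p was 0.1, the smallest that 3 against 3 arrays can give, and also 0.1 after adjustment over the 4 paralog pairs. This concerns unequal change between genotypes, not which of the genes has more RNA.

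**Figure D1:**
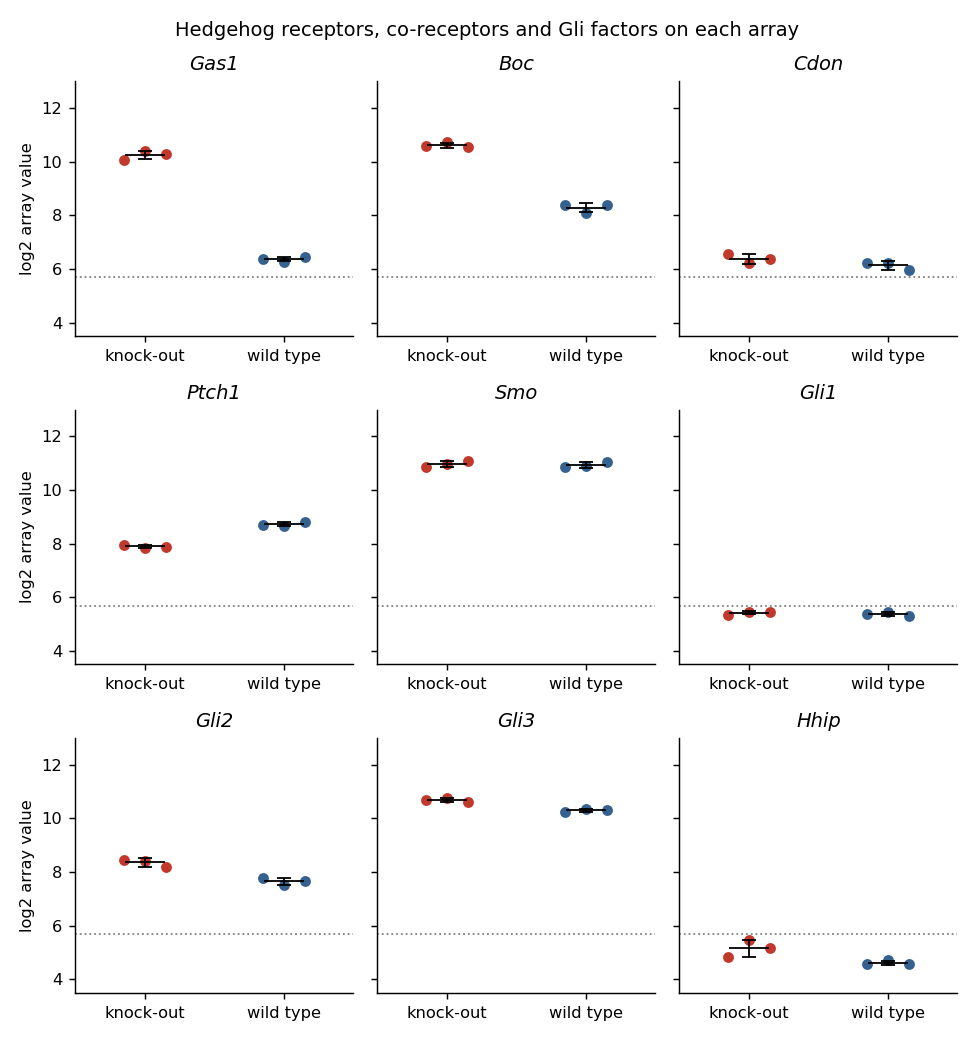
Log2 array value (vertical axis) of each of the 9 genes in knock-out (red, left) and wild-type samples (blue, right), 1 point per array, with the mean and SD of 3 arrays in black. The dotted line is the level below which 95% of olfactory and vomeronasal receptor genes lie (5.68), and Gli1 and Hhip stay under it in both genotypes while Gas1 and Boc separate the genotypes most widely.

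Ptch1 was the only member that fell. PTCH1 is the receptor that binds Hedgehog ligands and keeps Smoothened inactive, and its gene is induced by the pathway. Ptch1 (probe set 10410039, chromosome 13) had log2 values of 7.97, 7.86 and 7.87 in knock-out cells, against 8.71, 8.66 and 8.81 in wild-type cells. All knock-out arrays lay below all wild-type arrays. The means were 7.90 ± 0.0597 in knock-out and 8.73 ± 0.077 in wild-type cells (SD, n = 3 each). Knock-out minus wild type was -0.83 on the log2 scale (SE 0.07, limma adjusted p = 5.4e-06), so the level was 1.77-fold higher in wild-type cells. A larger fall was seen for 595 genes.

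Smoothened, the membrane protein that passes the signal on, was not called. Smo (probe set 10536917, chromosome 6) had log2 values of 10.85, 10.97 and 11.07 in knock-out cells, against 10.85, 10.89 and 11.05 in wild-type cells. The genotypes overlapped over nearly their whole range. The log2 difference was 0.04 (SE 0.08, limma adjusted p = 0.80), with a 95% interval of -0.14 to 0.21. Its sign turned with the scaling, since it was -0.01 with each array centred on its median.

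HHIP is a membrane protein that binds and sequesters Hedgehog ligands. Hhip (probe set 10579894, chromosome 8) had log2 values of 4.84, 5.47 and 5.19 in knock-out cells, against 4.58, 4.71 and 4.56 in wild-type cells. The knock-out arrays were all above the wild-type arrays but spread more widely, with SDs of 0.312 in knock-out and 0.0809 in wild-type cells (n = 3 each). The log2 difference was 0.55 (SE 0.13, limma adjusted p = 0.0090). Every array lay under 5.68, the 95th percentile of the mean levels of 1194 odorant and pheromone receptor genes of the nose, which serve here as a measure of background. A level above background was therefore not shown for Hhip in either genotype.

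The Gli genes encode zinc finger transcription factors, of which GLI2 is mainly an activator, GLI3 mainly a repressor, and GLI1 an activator whose gene is itself a target. Gli1 (probe set 10373179, chromosome 10) had log2 values of 5.36, 5.46 and 5.45 in knock-out cells, against 5.36, 5.44 and 5.30 in wild-type cells. All 6 values lay under the receptor background of 5.68. The log2 difference was 0.05 (SE 0.06, limma adjusted p = 0.64), with a 95% interval of -0.09 to 0.20.

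Gli2 (probe set 10357137, chromosome 1) had log2 values of 8.46, 8.43 and 8.19 in knock-out cells, against 7.79, 7.52 and 7.68 in wild-type cells. The genotypes did not overlap, and the lowest knock-out value was that of replicate 3. Gli2 rose by 0.70 (SE 0.09, limma adjusted p = 2.4e-04), or 1.62-fold. Gli3 (probe set 10403727, chromosome 13) had log2 values of 10.69, 10.78 and 10.62 in knock-out cells, against 10.24, 10.35 and 10.33 in wild-type cells. Again no knock-out array fell within the wild-type range. Gli3 rose by 0.39 (SE 0.07, limma adjusted p = 0.0013), or 1.31-fold.

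The log2 value of Gli2 minus that of Gli3 was -2.23, -2.35 and -2.43 on the knock-out arrays, against -2.45, -2.83 and -2.65 on the wild-type arrays. The genotypes differed by 0.31 in this quantity, and the highest wild-type array lay close to the lowest knock-out array. The exact two-sided permutation p was 0.1, the smallest possible, and the same after adjustment over the 4 pairs, but with quantile normalization the difference was 0.26 and the exact permutation p 0.2. The pairs with Gli1 gave -0.64 against Gli2 and -0.34 against Gli3 (exact permutation p = 0.1 each). As Gli1 was at background on all arrays, these values restate the rises of Gli2 and Gli3 and measure no change of Gli1.

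**Figure D2:**
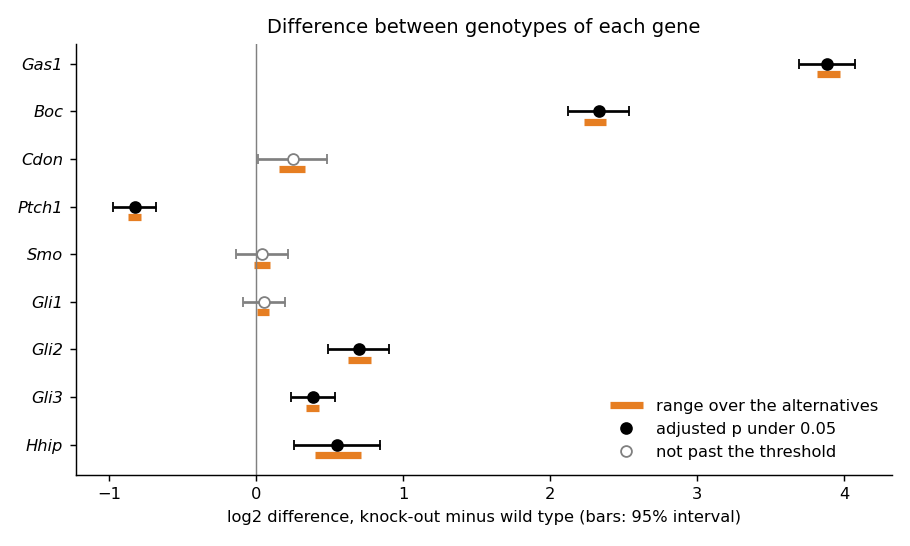
Log2 difference between knock-out and wild-type cells (horizontal axis) for each of the 9 genes, with 95% intervals from limma. Filled points passed at an adjusted p under 0.05, open points did not, and the orange bars, which span the values over the alternative settings, keep the sign for every gene except Smo.

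The titles give the samples of both genotypes the numbers 1 to 3, and samples of the same number deviated together across genes. With the numbers as pairs, the difference of Gas1 was 3.69, 4.11 and 3.85 and that of Boc 2.18, 2.64 and 2.16. For Ptch1 it was -0.74, -0.80 and -0.94. Pair 2 gave the widest gap for Gas1, Boc, Gli2 (0.91) and Hhip (0.76), while for Cdon it gave -0.02, against 0.36 and 0.41 in the other pairs. No call among the 9 genes changed with the replicate number as a block.

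Gas1, Ptch1 and Gli3 lie on the same chromosome and differed in direction. The measured protein-coding genes next to each member in the RefSeq order were looked up after the values had been seen. Of the 18 neighbours 1 was higher, 5 were lower and 12 were not called. Over all genes 31.6% were called, 14.0% as higher and 17.6% as lower, so calls among neighbours are common by themselves. The neighbours of Boc, Cfap44 and Nepro, had log2 differences of 0.05 and 0.00. Beside Gas1, Dapk1 rose by 0.42 (limma adjusted p = 0.0011) and Tut7 had a difference of -0.18 (limma adjusted p = 0.064). Both neighbours of Ptch1 fell, Fancc by 0.48 (limma adjusted p = 0.0032) and Ercc6l2 by 0.48 (limma adjusted p = 5.6e-04), each less than Ptch1 itself. The largest difference among the neighbours was that of Tfcp2l1 beside Gli2, which fell by 1.76 (limma adjusted p = 3.1e-08) where Gli2 rose. Both neighbours of Smo fell too, Tspan33 by 0.31 and Ahcyl2 by 0.58. Of the neighbours named here, Cfap44, Dapk1 and Tspan33 had means under the background of 5.68 in both genotypes.

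The genes whose values over the 6 arrays lay closest to those of Gas1, Boc and Ptch1 were found by Euclidean distance after each gene's own mean was subtracted. For Gas1 they were Tfpi (distance 0.20 on the log2 scale), which encodes an inhibitor of tissue factor, Ptgis (0.27), the prostacyclin synthase, and Man1a (0.29), a mannosidase. For Boc they were Tgfb3 (0.21), a TGF-β ligand, Anpep (0.21), an aminopeptidase, and Raet1d (0.25). For Ptch1 they were Mycl (0.09), a transcription factor of the Myc family, Adam10 (0.10), a membrane protease, and Lgmn (0.11), a lysosomal protease. With 3 arrays in each of the genotypes, these distances mostly reflect a like difference between genotypes.

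The ligands that these receptors bind were not detected above background. Shh had log2 values of 5.14, 5.07 and 4.84 in knock-out cells, against 5.08, 5.26 and 4.99 in wild-type cells. The means of Ihh were 5.34 ± 0.101 in knock-out and 5.37 ± 0.0357 in wild-type cells, and those of Dhh 5.14 ± 0.0263 and 5.11 ± 0.0815 in knock-out and wild-type cells (SD, n = 3 each). All lay under 5.68 and none of these genes was called (limma adjusted p = 0.55 for Shh, 0.76 for Ihh and 0.76 for Dhh).

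Among genes that process, release or carry the ligand, several differed between genotypes. The list of 14 measured genes, the 3 ligands included, had 5 higher and 1 lower (42.9% called, against 31.6% over all genes) and a median log2 difference of 0.10. Without the ligands these were 5 and 1 of 11, with a median of 0.11. Lrp2, or megalin, an endocytic receptor that binds Sonic hedgehog in the forebrain, had log2 values of 5.77, 6.03 and 6.05 in knock-out cells, against 9.10, 9.23 and 9.08 in wild-type cells. It fell by 3.18 on the log2 scale (SE 0.09, limma adjusted p = 1.2e-09), opposite in direction to Gas1 and Boc. Gpc6, a heparan sulfate proteoglycan of the cell surface, had 10.87, 10.83 and 10.78 in knock-out cells, against 8.75, 8.79 and 8.73 in wild-type cells, a rise of 2.07 (SE 0.06). Scube3, of a family of secreted proteins of which SCUBE2 helps to release the ligand, rose by 1.86 (SE 0.10). Disp1, the transporter that releases the lipid-bearing ligand, rose by 0.91 (SE 0.08), to 11.41 in knock-out cells, against 10.50 in wild-type cells.

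Between Smoothened and Gli, 3 of 25 measured genes were higher and 5 were lower, and none was called with an at least 2-fold difference (limma, adjusted p under 0.05). The share called was close to the 31.6% over all genes. All 25 genes lay above background in both genotypes, while the share over all genes counts genes at background too. The shares are therefore not of genes at like levels, and whether the count sets the list apart was not tested. With each array centred on its median 3 were higher and 9 lower. The 8 calls became 5 at an adjusted p under 0.01. The largest fall was that of Arrb2, a β-arrestin that takes part in the movement of Smoothened, by 0.94 (SE 0.07, limma adjusted p = 3.6e-06). Iqce, which anchors the EVC complex in the cilium, rose by 0.41 (SE 0.07), Gpr161, a ciliary receptor that restrains the pathway, by 0.37 (SE 0.06), and the kinase gene Csnk1e fell by 0.33 (SE 0.08). The main intracellular inhibitor, Sufu, had a difference of -0.15 (SE 0.06, limma adjusted p = 0.077), with all knock-out arrays below all wild-type arrays. Kif7, a ciliary kinesin that regulates Gli, had 0.11 (SE 0.08, limma adjusted p = 0.32).

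The primary cilium, in which Smoothened acts, was represented by 38 measured genes, of which 8 were higher and 14 lower, with a median of -0.07. That is 57.9% called, against 31.6% over all genes. Of the 38 genes, 37 lay above background in both genotypes, while the share over all genes counts genes at background too. The shares are therefore not of genes at like levels, and the count is not read as a trait of the cilium. The only one called with an at least 2-fold difference was Tmem231, a protein of the ciliary transition zone, which rose by 1.31 (SE 0.07), to 8.66 ± 0.0265 in knock-out cells, against 7.35 ± 0.129 in wild-type cells (SD, n = 3 each). Mks1, of the same zone, rose by 0.59 from a wild-type mean under background (5.74 in knock-out and 5.14 in wild-type cells), and the transport protein gene Ift88 rose by 0.57 (SE 0.09). Kif3b, a motor of transport into the cilium, fell by 0.54 (SE 0.06).

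**Figure D3:**
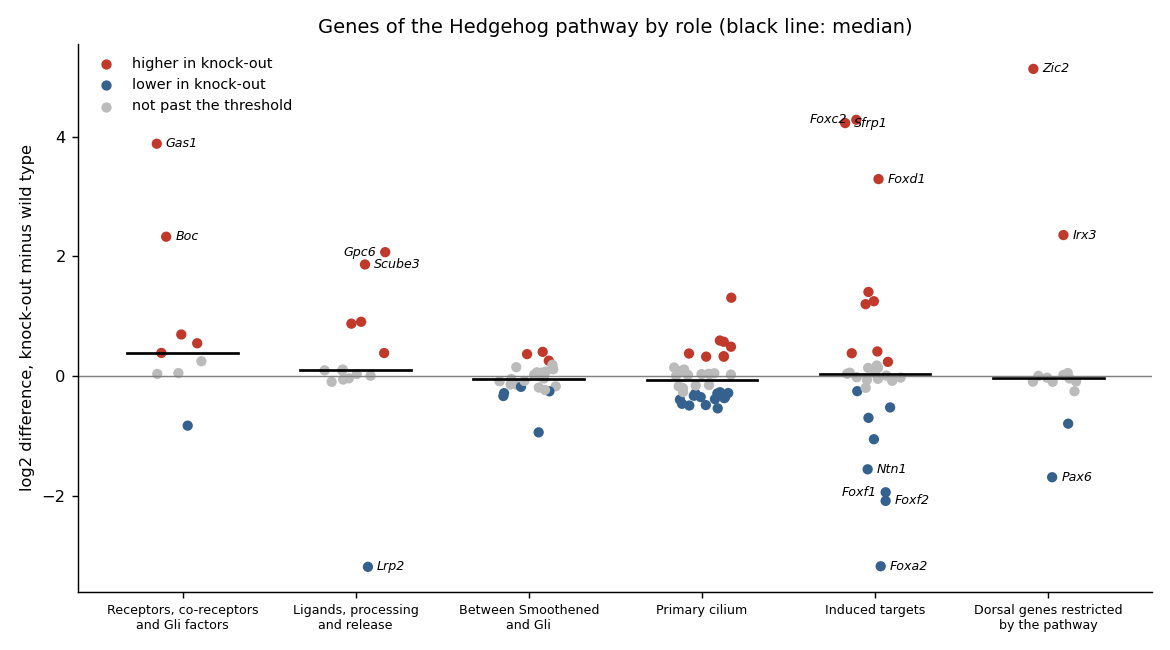
Log2 difference between knock-out and wild-type cells (vertical axis) for every measured gene of 6 lists of the Hedgehog pathway, each point a gene and each black line a list's median. The gene farthest from 0 in its own list is Gas1 (3.88) for the receptors, Lrp2 (-3.18) for the ligands and Arrb2 (-0.94) for transduction. For the cilium it is Tmem231 (1.31), for the targets Foxc2 (4.28) and for the dorsal genes Zic2 (5.13).

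Genes that Hedgehog signalling can induce in one tissue or another moved in both directions. Of 31 measured targets 9 were higher and 8 lower (54.8% called, against 31.6% over all genes), and the median was 0.04. The means of 14 of the 31 lay under background in both genotypes. Among these were 1 gene called lower, Nkx2-2 (difference -0.25), and 1 called higher, Nkx6-1 (0.24). At least 2-fold higher were 6 and at least 2-fold lower 5, as were 3.05% and 2.27% of all genes. The forkhead factor gene Foxc2 had log2 values of 9.42, 9.81 and 9.51 in knock-out cells, against 5.14, 5.34 and 5.41 in wild-type cells, a rise of 4.28 (SE 0.11). Sfrp1, a secreted Wnt inhibitor, rose by 4.23 (SE 0.07), and Foxd1, a forkhead factor of mesenchyme, by 3.29 (SE 0.09), and the wild-type means of all 3 lay under background, which limits these differences. Foxa2, the floor plate factor, fell by 3.17 (SE 0.12), to 5.87 in knock-out cells, against 9.04 in wild-type cells. The forkhead genes Foxf1 and Foxf2, named after their values had been seen, fell by 1.94 (SE 0.10) and 2.08 (SE 0.08). Foxf1 lay above background in both genotypes (9.17 in knock-out and 11.11 in wild-type cells), and Foxf2 did so in wild-type cells only (5.40 in knock-out and 7.48 in wild-type cells). The rest of the targets called with an at least 2-fold difference went both ways. Tgfb2 rose by 1.25 and Cntfr by 1.20, while Ntn1 fell by 1.56 and Ccnd2 by 1.05, all above background in both genotypes. Grem1 rose by 1.41 from a wild-type mean under background (5.65).

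Genes of the dorsal neural tube whose range Hedgehog signalling restricts were mostly at background. Of 13 measured genes 8 lay under 5.68 in both genotypes. In this list 2 were higher and 2 were lower (30.8% called, against 31.6% over all genes), with a median of -0.04. Zic2, a zinc finger factor of the dorsal neural tube, rose by 5.13 (SE 0.14), to 10.18 ± 0.344 in knock-out cells, against 5.05 ± 0.0911 in wild-type cells (SD, n = 3 each). The wild-type level of Zic2 was under background. Irx3, an Iroquois homeobox factor, rose by 2.36 (SE 0.12). Pax6, a paired-box factor of progenitors, fell by 1.69 (SE 0.07), and Msx2 by 0.79 (SE 0.09), with knock-out means under background for both (5.44 for Pax6 and 5.29 for Msx2). Where a mean is under background, the difference is that of the array values and not an exact change of RNA.

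**Figure D4:**
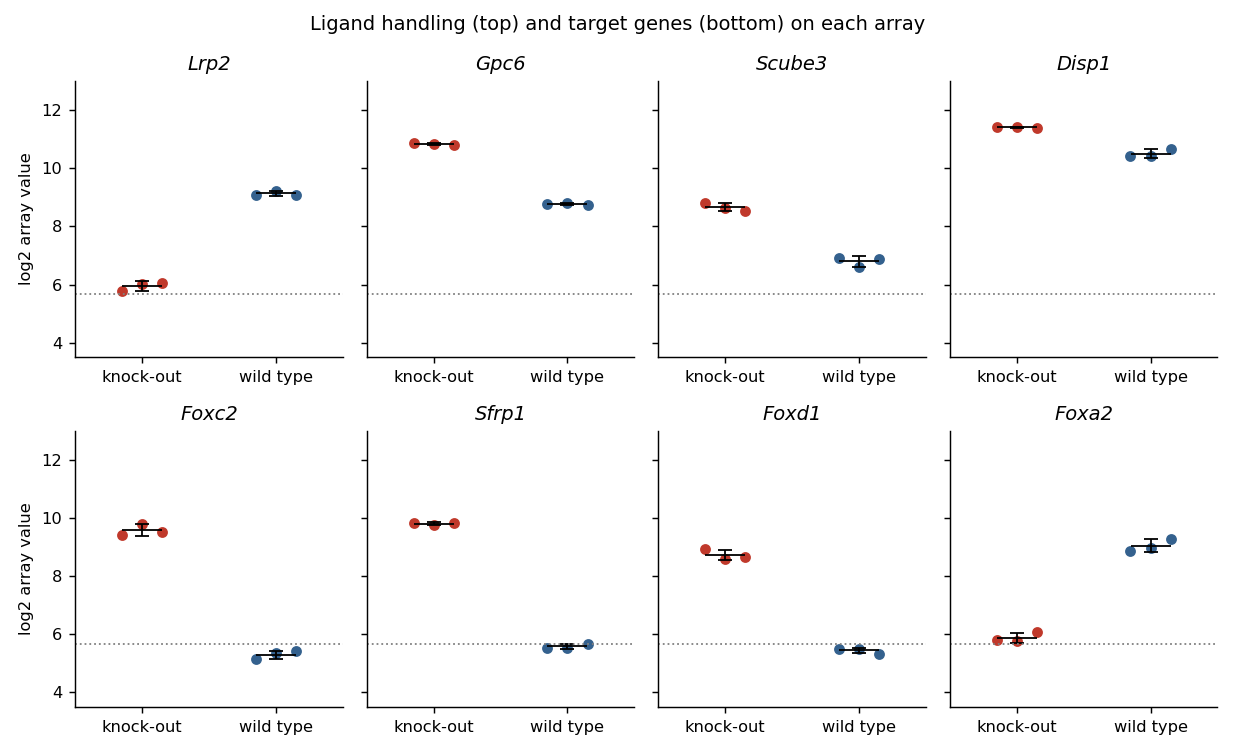
Log2 array value (vertical axis) of 4 genes of ligand handling and 4 target genes in knock-out (red, left) and wild-type samples (blue, right), 1 point per array with mean and SD of 3 arrays, and the receptor background of 5.68 as a dotted line. Lrp2 and Foxa2 are near background in knock-out cells, and Foxc2, Sfrp1 and Foxd1 are under it in wild-type cells.

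Other differences ran along with these. The median log2 value per array was 6.36 to 6.41, and arrays correlated at 0.993 to 0.995 within and 0.968 to 0.971 between genotypes (Pearson r over 35556 probe sets). Of 18 markers of fibroblasts and meninges, a cell type that carries Gas1 as well, 14 were higher and 1 was lower. That is 83.3% called, against 31.6% over all genes. The mean log2 value of these markers was 9.64 to 9.69 on the knock-out arrays and 7.60 to 7.62 on the wild-type arrays. Postn and Col1a2 rose most among them, by 5.77 and 5.30. Of 15 markers of neural progenitors 2 were higher and 6 lower (53.3% called). Their mean was 8.10 to 8.14 on the knock-out and 8.38 to 8.45 on the wild-type arrays. Ptprz1 rose by 6.43, from a mean under background in wild-type cells (4.92) to 11.35 in knock-out cells. Sox2 fell by 5.92, to a mean under background in knock-out cells (5.35), against 11.26 in wild-type cells. Of the endothelial markers 8 of 11, of the neuron markers 8 of 11, of the microglia and leukocyte markers 7 of 10, of the glial markers 7 of 11 and of the neural crest markers 4 of 8 lay at background in both genotypes. Their largest differences were Erg (4.60) and Tek (3.14), Syt1 (-0.92) and Map2 (0.90), Tmem119 (2.12) and Trem2 (-0.23), Aqp4 (-2.10) and Mbp (-0.87), and Snai2 (3.05) and Ets1 (-0.92). The wild-type means of Erg (5.37) and Tek (5.07) were under background. Xist, the RNA of the inactive X chromosome, averaged 12.44 in knock-out and 4.64 in wild-type cells, and the Y-linked gene Eif2s3y 4.67 in knock-out and 10.19 in wild-type cells. The 4 measured genes of this kind separated the genotypes on every array, 1 higher and 3 lower in knock-out cells. By these genes the knock-out samples had a female pattern and the wild-type samples a male one, so sex and genotype cannot be told apart. The part of these differences in the values of Gas1, Boc, Ptch1 and the other Hedgehog genes was not tested. Cells of another type and more RNA per cell cannot be told apart in such bulk samples. Lgi1 itself had log2 values of 4.53, 4.57 and 4.54 in knock-out cells, against 4.61, 4.75 and 4.94 in wild-type cells (difference -0.22, limma adjusted p = 0.075). It was at background in both genotypes, and so it was no check of the labels.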

How the data were processed

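RNA of 3 Lgi1 knock-out and 3 wild-type samples was measured on 1-colour Affymetrix Mouse Gene 1.0 ST arrays, from 250 ng of total RNA per the labels' protocols. The deposited values are on a log2 scale, as judged from their range, and were used as they stand. Per the submitters' processing notes, Partek was used. How the authors corrected background, scaled the arrays and summarised probes is not given in the sources used. The number of arrays limits the precision.

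Of 35556 probe sets, 21789 had 1 gene symbol in GEO's platform annotation, 1621 several and 12146 none, and 21698 of the first matched RefSeq (GRCm38.p6) by gene ID. The probe set with the highest mean was kept for each of 19938 genes. Genotypes, taken from the titles, were set against each other by linear models without a block (limma 3.58.1, R 4.3.3) with Benjamini-Hochberg adjustment over all genes, and a call is an adjusted p under 0.05. Shares called over all genes include genes at background, so they are no like measure for lists of genes above it. In data simulated on the 19938 genes, 50 genes were changed at each size, with noise independent between arrays. The test recovered 74% of genes changed by 0.5, 94% by 1, 100% by 2 and 100% by 4 on the log2 scale, and called 7 unchanged genes. A far smaller share of genes was changed there than the 31.6% called in these data, so these rates do not carry over to the calls here. Paralog pairs were compared with exact permutation tests. One planned pair is not reported here.

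The members, the lists, the receptor background and the tests were chosen with earlier results of these data known. All 9 members are named, the 4 largest differences of each other Hedgehog list with the ligands, Sufu and Kif7, and the 2 largest of each marker list. Further targets were named after their values had been seen. After the mean of its genotype was subtracted, samples that share a number correlated at 0.187 to 0.288 and others at -0.185 to -0.00466, over genes, which are not independent replicates. Every same-number pair exceeded 0.1, so the numbers count as pairs, as read from the titles. The alternatives were quantile normalization, centring on the median, filters on dim genes, averaging of probe sets, array weights, robust settings with a trend, the replicate number as a block, other thresholds and leaving out each array.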

Additional observations from a re-analysis of the deposited data

How the results depend on the processing

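The 6 calls among the 9 members, and their directions, were the same under quantile normalization, centring, array weights, robust settings with a trend and the replicate block. The block changed no call of these 9. Averaging of probe sets could not change the values of the members, each of which had 1 probe set, and so it is no check of them. Filters at the 25th percentile, at the median and, chosen after seeing the data, at the receptor background left out Hhip and gave 5. Leaving out 1 array gave 6 to 7 calls, the 7 being with Cdon and without knock-out replicate 2. The difference of Smo was -0.0091 with centred arrays and ranged from -0.017 to 0.096 when 1 array was left out, and was not called. Requiring at least 2-fold left 1061 calls over all genes, 2 among the members, 3 in ligand handling, 0 between Smoothened and Gli, 1 in the cilium and 11 among targets, and an adjusted p under 0.01 left 5 between Smoothened and Gli. These thresholds are stricter by construction. Leaving out 1 array gave 5485 to 5803 calls over all genes, 6 in ligand handling each time, 6 to 9 between Smoothened and Gli, 17 to 22 in the cilium, 14 to 17 among targets and 4 to 5 among dorsal genes. The replicate block gave 7000 calls over all genes, against 6296, and 11 against 8 between Smoothened and Gli. Centring on the median gave 2386 higher and 4311 lower calls over all genes, against 2784 and 3512, and 12 against 8 calls between Smoothened and Gli. Paired sign flips of the paralog differences cannot go below an exact p of 0.25, and Gli2 minus Gli3 had an exact p of 0.2 under quantile normalization and without knock-out replicate 1, 2 or 3 or wild-type replicate 2, each in turn. Levels near background limit Gli1, Hhip and the ligands.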
